A study of Homo sapiens and Homo sapiens
Mus with 12 samples.

Results

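The mouse host tissue of 15 UM-UC-3 xenograft tumors was examined through the mouse gene counts of each tumor. The 13565 genes kept were those annotated as protein coding whose symbols do not start with mt-, of 17389 mouse genes in the table. The 15 tumors were part of 24 RNA-seq libraries in the series. UM-UC-3 is a human bladder cancer cell line. Its cells carried GIPZ lentiviral vectors with GFP and either a non-silencing shRNA (shCtrl) or 1 of 2 shRNAs against CDH11 (sh#1 and sh#2), and GFP-positive cells had been sorted. Cells in Matrigel were injected under the skin of male BALB/cAJcl-nu/nu nude mice aged 5 weeks, and tumors were taken 4 weeks later. Each group held 5 tumors. The 10 tumors of sh#1 and sh#2 together are called CDH11 KD. All groups thus share the host strain, the vector backbone, GFP and Matrigel, and the shRNA acted in the injected human cells. The labels enter the 5 tumors of a group as 1 sample and do not say whether each tumor grew in its own mouse. The p-values therefore measure only the spread between these tumors, which may in part be technical.

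A subcutaneous tumor draws its fibroblasts, blood vessels, macrophages and other stroma from the host, so mouse transcripts report on stroma while human transcripts report on the cancer cells. Fibroblasts lay down collagen, macrophages clear debris and can either present antigen or promote repair, and endothelial cells line the vessels that bring red blood cells with their globin mRNA. Nude mice lack a functional thymus because of a mutation in Foxn1 and make few mature T cells, while their macrophages, mast cells and NK cells remain. CDH11 is a cadherin of mesenchymal cells, so the host fibroblasts can express the mouse gene Cdh11 themselves. In bulk tumors, fewer cells of a type and less RNA per cell cannot be told apart.

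The targeted gene was checked first in the human counts of the same tumors. Human CDH11 had only 148 counts over all 15 tumors. It stood at 19.9, 15.6, 19.6, 33.5 and 9.48 human CPM (counts-per-million of the human protein-coding counts of a tumor) in shCtrl, at 3.09, 3.96, 11.5, 2.61 and 8.29 in sh#1, and at 12.2, 22.9, 13.8, 7.61 and 4.60 in sh#2. The means were 19.6 ± 8.83 (SD, n = 5), 5.89 ± 3.85 and 12.2 ± 7.0. The groups overlapped, and 3 of the sh#2 tumors lay within the shCtrl range.

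Mouse counts were few. Between 43370 and 136584 mouse counts per tumor fell on the 13565 genes, against 323227 to 1057594 human counts on protein-coding genes, and 7312 to 10515 mouse genes had at least 1 count. At this depth 3 counts were worth 22 to 69.2 CPM (for mouse genes, counts-per-million of the mouse counts scaled with edgeR's TMM factors), so a low marker cannot be told from an absent one. One gene of the rRNA biotype, CT010467.1, took 21.8% to 67.4% of all mouse counts and was left out.

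The mouse share of counts was 8.98%, 10.4%, 7.58%, 7.98% and 7.6% in the shCtrl tumors. It was 26.1%, 7.31%, 8.64%, 6.91% and 7.64% in sh#1 and 7.98%, 14.4%, 13.5%, 7.31% and 10.9% in sh#2. The first sh#1 tumor had the highest share, and the other 14 lay between 6.91% and 14.4%. The mean was 8.51% ± 1.21 (SD, n = 5) in shCtrl and 11.1% ± 5.93 (n = 10) in CDH11 KD. The difference of 2.56 percentage points was not larger than the spread between tumors (two-sided exact permutation test, p = 0.428). It was 0.894 without the first sh#1 tumor (exact permutation test, p = 0.532). Each shRNA group was a library mix of its own, so mix and group cannot be told apart in any comparison here.

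Part of the mouse counts lay on genes that human cells also express strongly. Of the 13565 genes, 12202 had a human gene of the same symbol in the cultured cell table, and for 7101 of them this human namesake exceeded 10 CPM in cultured shCtrl cells. Those 7101 genes took 65.7% to 79.9% of the mouse counts. Per 1000 human counts, the tumors had 15.3 to 121 mouse counts on the remaining genes and 58.9 to 232 on the 7101. Both kinds moved together across tumors. A straight line through all 15 tumors had a slope of 1.63 and met 41.5 on the axis of the second kind when the first was 0. Without the first sh#1 tumor the slope was 2.40 and the line met 25. The first sh#1 tumor lay below this line of the other 14. How mouse and human reads were separated is not given in the sources used here. Values for genes of the second kind are marked below as having a high human namesake.

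**Figure D1:**
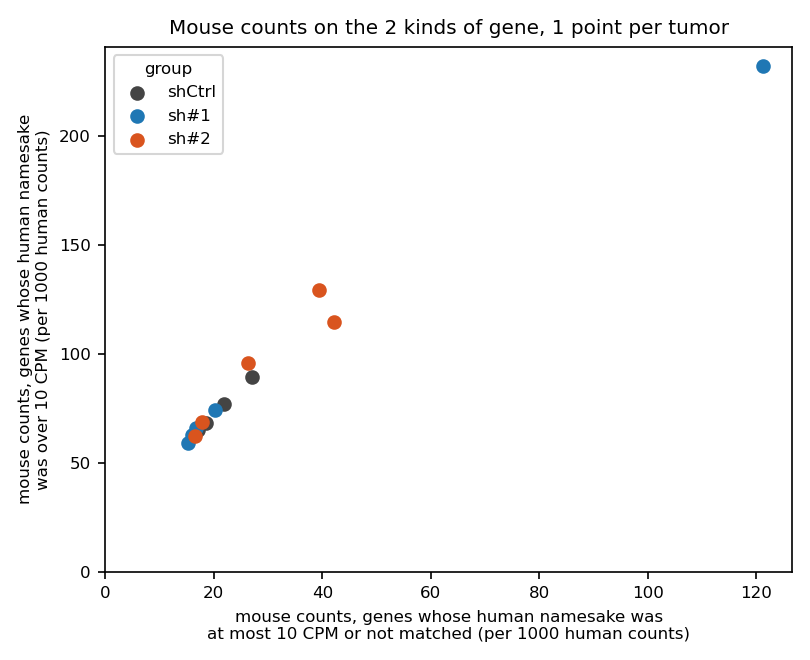
Mouse counts per 1000 human counts on genes whose human namesake was at most 10 CPM or was not matched (horizontal axis) and on genes whose namesake was over 10 CPM (vertical axis), 1 point per tumor colored by shRNA group. The points of the other 14 tumors lie near 1 line, and the first sh#1 tumor lies alone at 121 and 232, below that line.

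At the level of single genes, counts on a high-namesake mouse gene amounted to a median of 7.03 per 100 counts of the human gene over 7060 such genes, with quartiles of 3.35 and 14.6. For 184 of them, 2.61%, the mouse gene had more counts than the human one. Mouse Col1a1, the main fibrillar collagen chain of fibroblasts, had between 839 and 2083 counts per 100 human COL1A1 counts in every tumor. Mouse Vgf, a secreted neuropeptide precursor, had only 4.01 to 12.9 per 100 human VGF counts.

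Erythroid, fibroblast and macrophage genes took the largest parts of the mouse counts among 16 lists of cell type markers in 14 of the 15 tumors. In the first sh#1 tumor adipocyte markers (1.62%) and skeletal muscle markers (1.16%) took more than macrophage (0.774%) and fibroblast markers (0.293%). Together the 150 listed markers, of which 129 had counts and 33 had enough to be tested, took 4.39% to 8.51% of the counts. Shares of counts were not corrected for gene length and are not compared between genes as expression. Among single genes, Actb (cytoplasmic actin, high human namesake) took a median of 2.17% of mouse counts per tumor, and Hbb-bs (adult beta globin, carried in by blood) took 1.63%. The ribosomal protein gene Rpl11 and the RNA-binding protein genes Ybx1 and Pabpc1 were at 0.998%, 0.844% and 0.683%, all with high human namesakes. Tmsb4x, the actin-sequestering thymosin, took 1.25%, and Fth1, a ferritin chain, took 0.688%, both likewise with high human namesakes. Col1a1 took 0.763% and Col1a2 0.537%. Their human namesakes were below 10 CPM in culture.

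The 12 fibroblast markers took 0.293% to 3.84% of the counts of a tumor, led by Col1a1, Col1a2 and Col3a1. The 15 monocyte and macrophage markers took 0.581% to 1.38%, led by Lyz2 (lysozyme), C1qa and C1qc (complement C1q chains). The erythroid list took 1.40% to 4.12%, nearly all of it from the 4 adult globin genes Hbb-bs, Hba-a1, Hba-a2 and Hbb-bt. Globin levels follow the blood left in a sample as much as its vessels. The 12 endothelial markers took 0.0438% to 0.151%, with Pecam1 (an adhesion molecule of endothelial junctions), Cdh5 (VE-cadherin) and Kdr (a VEGF receptor) in the lead. The mural and smooth muscle list took 0.0487% to 0.190%, led by Acta2 (smooth muscle actin), Rgs5 (a pericyte regulator of G-protein signaling) and Des (desmin).

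Lymphoid and granulocyte markers were close to absent at this depth. T cell markers had 19 counts in all 15 tumors together, among them 8 for Cd4, 1 for Cd8a and 5 for Lck, while Cd3e and Foxn1 were not analysed here. B cell and plasma cell markers had 7 counts and stood at 0 in 10 tumors. NK cell markers had 103 counts, led by Prf1 with 30, Gzmb with 28 and Klrk1 with 22, which encode the cytotoxic proteins perforin and granzyme B and an activating receptor. Neutrophil markers had 198 counts, of which S100a9 (a calcium-binding alarmin) gave 74, and dendritic cell markers had 55. Schwann cell markers had 65. No gene of these 6 lists had enough counts to be tested.

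Some tumors held far more of a tissue than most others. In the first sh#1 tumor the summed adipocyte markers reached 21983 CPM against 77.9 to 2651 CPM in the other 14. Fabp4, the fatty acid binding protein of fat cells, alone reached 14948 CPM there. Skeletal muscle markers reached 15709 CPM in the same tumor against 38.9 to 3237 CPM elsewhere, led by Acta1 (skeletal actin) at 6048 CPM and Myh4 (fast myosin) at 3838 CPM. The third sh#2 tumor came next for fat, at 2651 CPM, and had 2734 CPM of muscle markers. For muscle the first shCtrl tumor came next, at 3237 CPM. In the fourth shCtrl tumor mast cell markers stood at 1489 CPM against 18.7 to 235 CPM elsewhere. There the mast cell proteases Tpsb2, Cpa3, Cma1 and Mcpt4 had 40, 29, 28 and 24 counts. All 10 counts of the keratin gene Krt1 and all 13 of the filaggrin gene Flg, both genes of cornified epidermis, were also in that tumor.

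The first sh#1 tumor also differed in its inflammatory genes. Interferon response genes, which cells switch on when they sense virus or interferon, summed to 27686 CPM there and to 729.5 to 2560 CPM in the other 14 tumors. Rsad2, the antiviral enzyme viperin, stood at 8258 CPM against 77.5 to 417 CPM elsewhere, and Ly6c2, a surface marker of inflammatory monocytes, at 3945 CPM against 0 to 87.9 CPM. Its fibroblast sum was the lowest at 3981 CPM and its collagen and matrix sum was 7557 CPM against 20256 to 59604 CPM in the others. These CPM are relative to the mouse counts of a tumor. It had 335 fibroblast and 636 matrix counts beside 323227 human counts. The second sh#1 tumor had 689 and 1291 beside 757517 human counts. Per human count the first sh#1 tumor was thus not the lowest. On the first principal component of the tested genes, which held 34.2% of the variance, it lay at 41.2 while the other 14 lay between -9.56 and 8.79. Many results in which this tumor was extreme are therefore given with and without it, and the rest only with it.

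**Figure D2:**
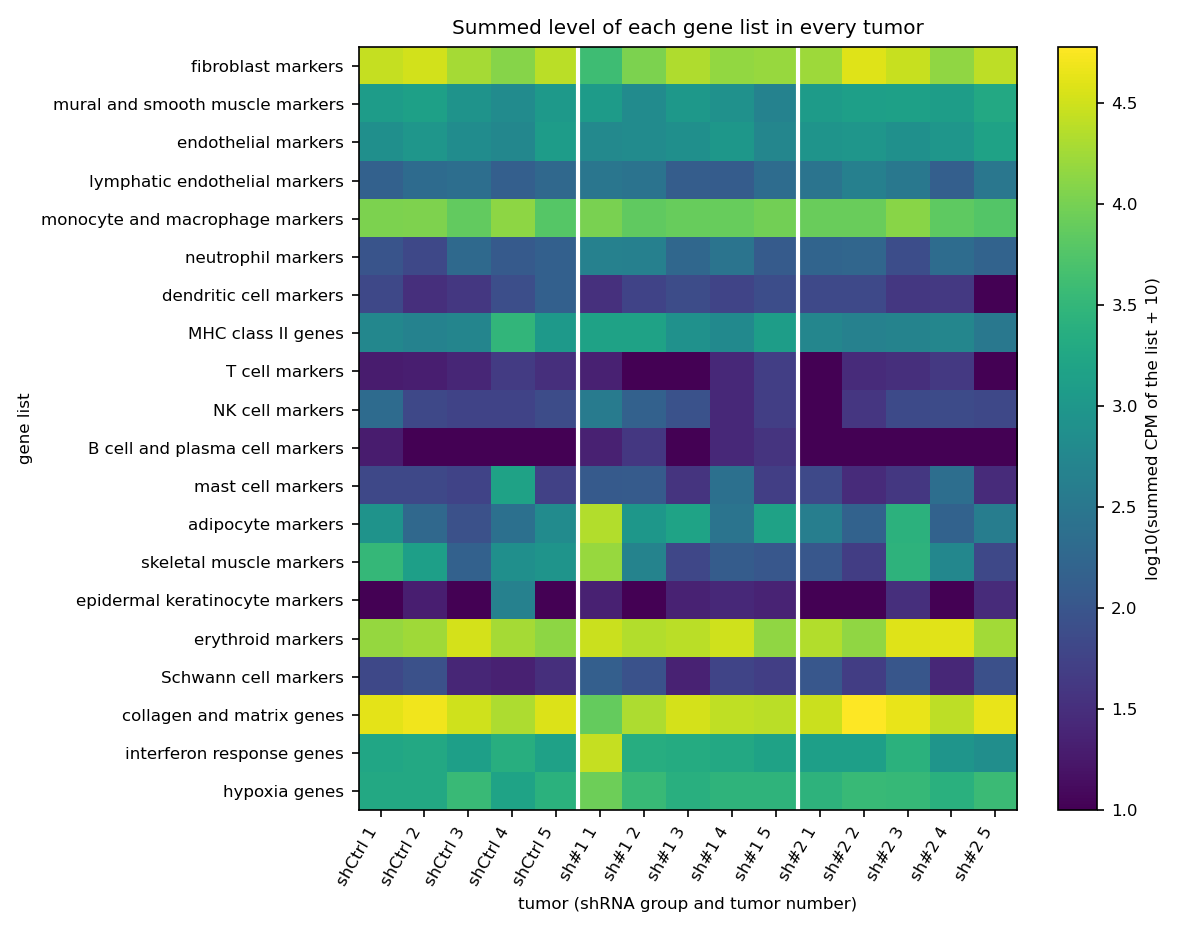
Summed level of 20 gene lists (rows) in each of the 15 tumors (columns, grouped by shRNA), as log10 of the summed CPM plus 10. Fibroblast, matrix, macrophage and erythroid lists are high in nearly every tumor, T and B cell lists are near the floor in all, and the first sh#1 tumor stands out for adipocyte, skeletal muscle and interferon lists.

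The question of whether CDH11 KD in the cancer cells went with a different host tissue was put to 1509 mouse genes with enough counts. At q < 0.1, the threshold used for these tumors, edgeR called 0 genes higher and 0 lower in the 10 CDH11 KD tumors than in the 5 shCtrl tumors, which is 0% of those tested, and the lowest q was 0.808. DESeq2 also called 0. At an unadjusted p < 0.05 there were 78 genes by edgeR, 5.17% of those tested, and 76 by DESeq2. Of the 78 genes, 51 (3.38% of those tested) had higher and 27 (1.79%) lower values in CDH11 KD, and 57 (73.1%) had a high human namesake, as did 1245 (82.5%) of all tested genes. With each of the 15 tumors left out in turn the count stayed at 0 in both directions. Only without the filter on low counts did edgeR call any, with 3 genes higher and 2 lower among 13565. The higher ones were Arg1 (arginase), Il1rn (interleukin-1 receptor antagonist) and Fnip2 (a folliculin partner, high human namesake). The lower ones were Flg and Krt1, whose counts all came from 1 shCtrl tumor. These 5 genes were named after their values were seen, as were all genes described below for a low p.

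Each hairpin alone gave 0 calls by edgeR as well, 0% of 1509 genes in each direction. The number at an unadjusted p < 0.05 was 136 for sh#1 against shCtrl, 59 for sh#2 against shCtrl and 145 for sh#1 against sh#2, or 9.01%, 3.91% and 9.61%. By direction, 5.96% of the tested genes were higher and 3.05% lower in sh#1 than in shCtrl. For sh#2 these shares were 2.12% and 1.79%. For sh#1 against sh#2 they were 4.71% and 4.90%. DESeq2 called 6 genes higher and 2 lower for sh#1, 2 lower for sh#2, and 0 between the hairpins. Without the first sh#1 tumor edgeR called 1 gene for sh#1, 3 for sh#2 and 1 between the hairpins. The sh#1 and sh#2 comparisons use the same 5 shCtrl tumors.

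Fibroblast markers had lower values in sh#1 tumors than in sh#2 tumors, with shCtrl nearer to sh#2. Col1a1 stood at 10436, 13077, 7459, 4253 and 10174 CPM in shCtrl, at 832, 4299, 8153, 6201 and 5923 CPM in sh#1, and at 7069.8, 16749, 10269, 4795 and 11616 CPM in sh#2. The sh#1 values reached no higher than the middle of the other groups, and all 3 groups overlapped. With all tumors its log2 fold change was -0.84 ± 0.46 (SE) for sh#1, 0.15 ± 0.45 for sh#2 and -0.99 ± 0.46 between the hairpins (edgeR, q = 0.591, 0.987 and 0.501), and -0.55 for sh#1 without its first tumor. All 7 tested fibroblast markers had a log2 fold change below 0 in CDH11 KD, where 54.3% of all tested genes were above 0. Their median was -0.29, against 0.03 over all genes. It was -0.70 in sh#1 and 0.08 in sh#2. Without the first sh#1 tumor the medians were -0.18 for CDH11 KD and -0.55 for sh#1.

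The wider list of collagen and matrix genes showed the same split between hairpins. Of 22 tested, 1 had a log2 fold change above 0 in sh#1 and 19 did in sh#2, against 52.2% and 51.9% of all genes, with medians of -0.57 and 0.28. Between sh#1 and sh#2 all 22 lay below 0, with a median of -0.83, and 14 of them had an unadjusted p < 0.05, against 4.90% of all genes in that direction. Of the 22, 10 had a high human namesake. None passed q < 0.1. Without the first sh#1 tumor all 22 still lay below 0, with a median of -0.55. Many of these genes can be made by the same cells, so they are not independent of one another. Which cells made these transcripts was not determined. Col5a2 (a fibrillar collagen chain), Fn1 (fibronectin, high human namesake) and Mmp14 (a membrane-bound matrix protease, high human namesake) had log2 fold changes of -1.04, -1.09 and -0.96 between the hairpins. Human FN1 stood at 21.0 ± 12.4 human CPM in sh#1 and 40.5 ± 28.2 in sh#2, and human MMP14 at 213 ± 35.7 and 280 ± 66.3. Human COL5A2 went the other way, at 19.8 ± 8.30 and 8.55 ± 4.44. The part of human reads in the mouse values of these matrix genes was not tested. In CDH11 KD as a whole the list was split, with 9 above and 13 below 0 and a median of -0.05.

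Postn, the matricellular protein periostin, had the lowest p of the fibroblast and matrix lists in CDH11 KD. It stood at 1506, 1163, 763, 512 and 1274 CPM in shCtrl, at 154, 455, 825, 471 and 670.2 CPM in sh#1, and at 697, 1078, 818, 460.5 and 655 CPM in sh#2. Only 1 of the 10 CDH11 KD tumors lay above the shCtrl mean of 1044 ± 401 CPM, yet the groups overlapped. Its log2 fold change was -0.72 ± 0.31 (edgeR, q = 0.870).

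Mouse Cdh11 itself (ENSMUSG00000031673, chromosome 8) was the stromal counterpart of the targeted gene. It stood at 282, 255, 187, 322 and 198 CPM in shCtrl, at 11.9, 78.4, 372, 33.6 and 137 CPM in sh#1, and at 329, 291, 212, 159 and 131 CPM in sh#2. The third sh#1 tumor held the highest value of all 15, and the other 4 sh#1 tumors lay below every shCtrl tumor. Mouse Cdh11 had a log2 fold change of -0.50 ± 0.44 in CDH11 KD, -0.97 ± 0.51 in sh#1 and -0.16 ± 0.48 in sh#2 (edgeR, q = 0.921, 0.574 and 0.987). The sh#1 value turned on single tumors, at -0.64 without the first sh#1 tumor (edgeR, q = 0.811) and -1.94 without the third (edgeR, q = 0.0666). With 239 counts over all tumors, single tumors had few, and the mouse gene had 80.0 to 350 counts per 100 counts of human CDH11. Within sh#1 the third tumor, and within shCtrl the fourth, had the highest value of both the mouse and the human gene. In sh#2 the highest human value was in the second tumor and the highest mouse value in the first. The part of human reads in the mouse values was not tested. The whole cadherin list had 3 tested members, Cdh5, Cdh11 and Cdh13 (T-cadherin), with a median of -0.15 in CDH11 KD.

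Vessel genes overlapped between the groups. Pecam1 stood at 65.9, 221, 187, 107 and 198 CPM in shCtrl, at 143, 94.1, 119.7, 151 and 137 CPM in sh#1, and at 136, 136, 144, 191 and 224 CPM in sh#2. All CDH11 KD values except that of the fifth sh#2 tumor lay within the shCtrl range. Its log2 fold change in CDH11 KD was -0.05 ± 0.28 (edgeR, q = 0.997), and its sign turned to 0.15, 0.03 and 0.02 when the second, the third or the fifth shCtrl tumor was left out. Acta2 stood at 470.5, 476, 452, 179 and 308 CPM in shCtrl, at 23.8, 251, 452, 151 and 164 CPM in sh#1, and at 484, 738, 674, 269.9 and 1047 CPM in sh#2. Of the sh#2 values, 4 lay above all of sh#1. The log2 fold change of Acta2 between the hairpins was -1.63 ± 0.48 (edgeR, q = 0.359), or -1.30 without the first sh#1 tumor. Vegfa, the main ligand that draws vessels (its human namesake was high in culture), had a log2 fold change of 0.62 ± 0.25 in CDH11 KD (edgeR, q = 0.870), with 9 of 10 tumors above the shCtrl mean. Flt1 and Nrp1, receptors of VEGF, had values of 0.12 and 0.09.

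Of 11 tested macrophage markers 4 were above and 7 below 0 in CDH11 KD, with a median of -0.23, or -0.33 for the 10 tested without the first sh#1 tumor, and none passed q < 0.1. C1qa stood at 1252, 1362, 794, 1727 and 879 CPM in shCtrl, at 131, 1004, 798, 807 and 1190.0 CPM in sh#1, and at 949, 632, 1007, 603 and 579.9 CPM in sh#2. All 10 CDH11 KD tumors lay below the shCtrl mean of 1203 ± 379 CPM, and the groups overlapped. Its log2 fold change was -0.65 ± 0.31 (edgeR, q = 0.870), or -0.54 without the first sh#1 tumor. Csf1r, the receptor for the growth factor that macrophages need, was below the shCtrl mean of 263 ± 64.9 CPM in all 10 as well, at 185 ± 43.2 CPM (log2 fold change -0.53 ± 0.23, edgeR, q = 0.870). Lyz2 stood at 5307, 5304, 3519, 6337 and 2483 CPM in shCtrl, at 962, 2730.1, 3325, 3142 and 4089.8 CPM in sh#1, and at 3816, 4372, 7293, 3319 and 2937 CPM in sh#2, with overlap of all groups. Ccr2, the receptor that brings monocytes from blood, went the other way in sh#1, with a log2 fold change of 1.57 (edgeR, q = 0.389), or 0.83 without the first tumor.

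Some genes linked to tissue repair and lipid uptake in macrophages had higher values in CDH11 KD, though none passed q < 0.1 with all tumors. Arg1 (ENSMUSG00000019987, chromosome 10), which diverts arginine to ornithine, stood at 84.7, 66.4, 249, 23.8 and 87.9 CPM in shCtrl, at 1058, 235, 186, 134 and 164 CPM in sh#1, and at 232, 466, 333, 191 and 355 CPM in sh#2. The third shCtrl tumor overlapped with CDH11 KD, and the other 4 shCtrl tumors lay below all 10. Arg1 had a log2 fold change of 1.78 ± 0.56 (edgeR, q = 0.808), with all 10 tumors above the shCtrl mean. It was 1.41 without the first sh#1 tumor. In that fit the sh#1 value went from 1.87 to 0.90 (edgeR, q = 0.759), and the sh#2 value, 1.69 with all tumors, was 1.72 and passed the threshold (edgeR, q = 0.0231). Human ARG1 had 2 counts in all tumors. Spp1, the phosphoprotein osteopontin, stood at 1275 ± 668 CPM in shCtrl, 2250.3 ± 1083 CPM in sh#1 and 3222 ± 1677 CPM in sh#2 (log2 fold change in CDH11 KD 1.10 ± 0.48, edgeR, q = 0.870). Cd36, a scavenger receptor for lipids that fat cells and vessels also carry, had a value of 1.01 ± 0.42, or 0.67 without the first sh#1 tumor. Apoe, which carries lipid out of macrophages, had a value of -0.48 ± 0.22, and Mrc1, the mannose receptor of the same state, one of -0.08 ± 0.23. Of the 10 tested genes of this list, 7 were above 0 in CDH11 KD with a median of 0.34, and 3 of the 10 had an unadjusted p < 0.05 in that direction, against 3.38% of all genes. Without the first sh#1 tumor 8 of the 10 were above 0, with a median of 0.25. The sh#1 median went from 0.50 to 0.19 in that fit.

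Il1rn (ENSMUSG00000026981, chromosome 2), which blocks the interleukin-1 receptor, had the lowest p of the sh#1 comparison. It stood at 18.8, 11.1, 93.4, 47.6 and 22 CPM in shCtrl, at 594, 157, 173, 185 and 150.5 CPM in sh#1, and at 116, 48.6, 182, 31.8 and 37.4 CPM in sh#2. Every sh#1 tumor lay above every shCtrl tumor, while sh#2 overlapped with both. Il1rn had a log2 fold change of 2.76 ± 0.58 in sh#1 and 1.27 ± 0.66 in sh#2 (edgeR, q = 0.169 and 0.976). DESeq2 gave 2.78 with q = 0.0137 for sh#1. Without the first sh#1 tumor the edgeR value was 2.15 with q = 0.335.

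Chemokines, the signals that draw leukocytes, were split by member. Ccl9 stood at 263, 144, 93.4, 119 and 109.9 CPM in shCtrl, at 1046, 329, 346, 185 and 342 CPM in sh#1, and at 232, 214, 386, 191 and 187 CPM in sh#2. All 10 CDH11 KD tumors lay above the shCtrl mean of 146 ± 68.2 CPM, although the first shCtrl tumor lay among them. Its log2 fold change was 1.21 ± 0.41 in CDH11 KD and 1.58 ± 0.40 in sh#1 (edgeR, q = 0.808 and 0.234), and DESeq2 called it in sh#1. These were 0.82 and 0.98 without the first sh#1 tumor, whose value was the highest (edgeR, q = 0.543 and 0.422). Ccl6, its neighbor in the same family, was above the shCtrl mean in all 10 too, with a log2 fold change of 0.73 ± 0.26. Ccl8 and Ccl12, ligands that draw monocytes, had values of -0.39 ± 0.36 and -0.39 ± 0.32, or -0.51 and -0.70 without that tumor. Of 7 tested chemokines and cytokines 4 were above 0 in CDH11 KD, with a median of 0.73, or 0.19 without the first sh#1 tumor.

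The antigen presentation genes of MHC class II divided the hairpins. Cd74, the invariant chain, stood at 151, 99.7, 187, 1036 and 527 CPM in shCtrl, at 499, 471, 279, 218 and 451 CPM in sh#1, and at 116, 77.7, 114, 127 and 112 CPM in sh#2. No sh#2 tumor reached the lowest sh#1 tumor, while shCtrl ran from 99.7 to 1036 CPM and overlapped with both. For Cd74 the log2 fold change was -0.03 ± 0.49 in sh#1, -1.86 ± 0.56 in sh#2 and 1.82 ± 0.56 between the hairpins (edgeR, q = 1, 0.943 and 0.359). H2-Aa, the alpha chain of the I-A molecule, had values of -0.27 ± 0.44, -1.30 ± 0.47 and 1.04 ± 0.48. The 3 tested genes had a median of -0.68 in CDH11 KD. It was 0.14 without the fourth shCtrl tumor, the one with the mast cell and epidermal counts, whose MHC class II sum was 3002 CPM against 465 to 1099 CPM in the other shCtrl tumors. The part of that tumor's other tissue in the result was not tested. Between the hairpins, Cd74 passed the threshold when it was left out (log2 fold change 1.85).

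**Figure D3:**
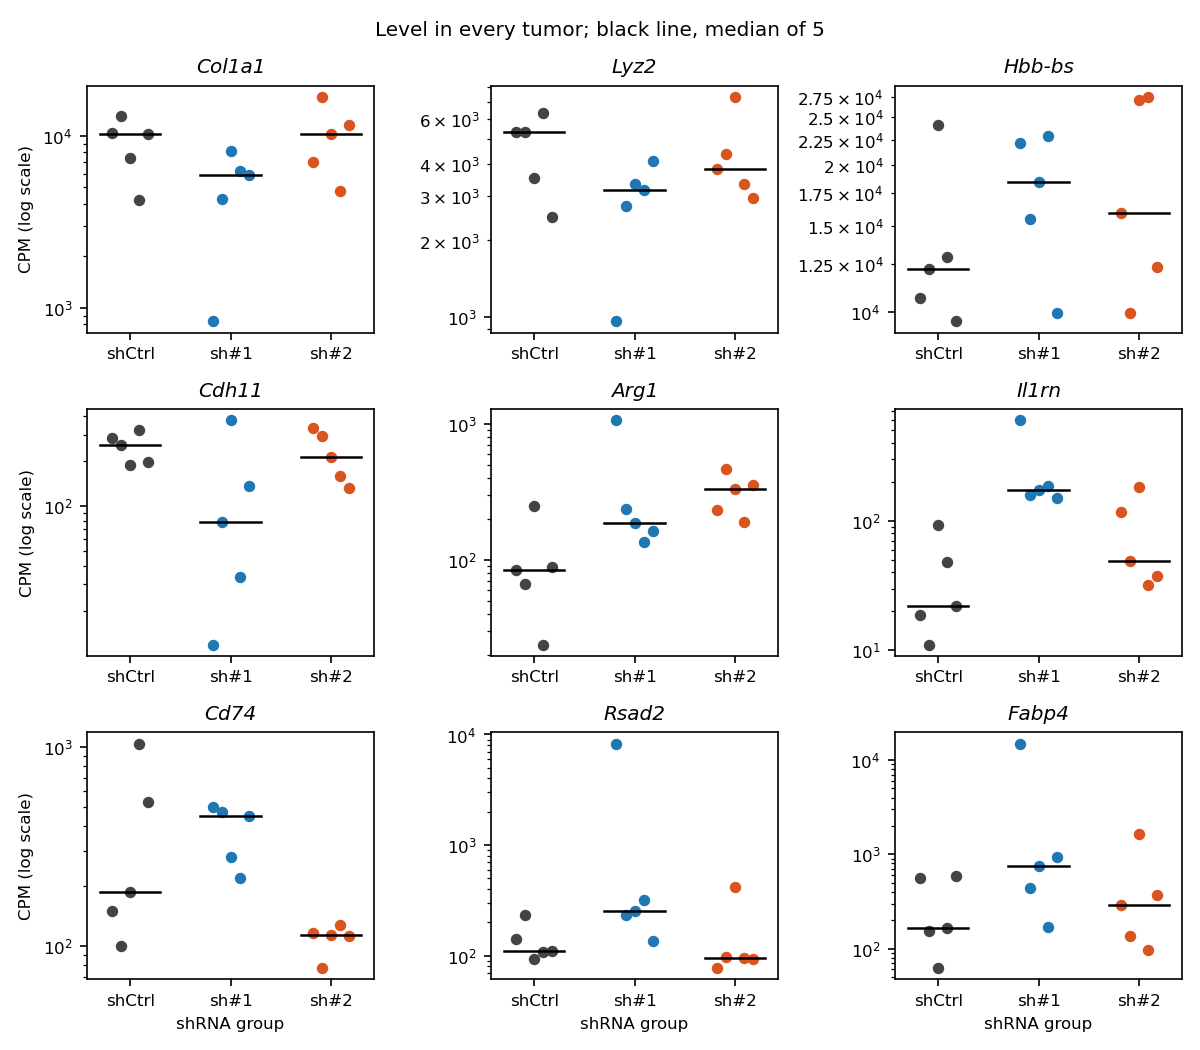
CPM (log scale) of 9 mouse genes in each tumor by shRNA group, 1 point per tumor, with a black line at the median of 5. Arg1 and Il1rn lie lower in most shCtrl tumors, Cd74 lies lower in all sh#2 than in all sh#1 tumors, and 1 sh#1 tumor is far above the rest for Rsad2 and Fabp4.

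Interferon response genes had a median log2 fold change of 1.14 in CDH11 KD with 5 of 5 tested above 0, but the value came from 1 tumor. Without the first sh#1 tumor the median was -0.07 and 1 of 4 was above 0. Isg15, a ubiquitin-like protein made on interferon, stood at 226, 233, 171, 179 and 87.9 CPM in shCtrl, at 4123, 314, 199.5, 218 and 123 CPM in sh#1, and at 174, 214, 265, 79.4 and 56.1 CPM in sh#2. Apart from the single high value the groups overlapped fully. For fat, the 2 tested adipocyte markers had a median of 3.05 in CDH11 KD, or 1.45 without the first sh#1 tumor, with both above 0 either way. Cfd, the adipocyte complement factor adipsin, had a log2 fold change of 3.39 ± 1.49 in CDH11 KD (edgeR, q = 0.870) and stood at 4099 CPM in that tumor, at most 719 CPM in the other CDH11 KD tumors, and between 0 and 160.0 CPM in shCtrl. Without that tumor its log2 fold change was 2.00.

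The 4 globin genes were all above 0 in CDH11 KD, with a median of 0.37, or 0.34 without the first sh#1 tumor. Hbb-bs stood at 10652, 12235, 24120.4, 12949 and 9558 CPM in shCtrl, at 22101, 15455, 18461, 22888 and 9944 CPM in sh#1, and at 15902, 9949, 27142, 27469 and 12327 CPM in sh#2. The groups overlapped throughout, and the log2 fold change of 0.39 ± 0.28 did not pass (edgeR, q = 0.896). The globin genes share sequence, and reads could have been divided among the near-identical copies.

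**Figure D4:**
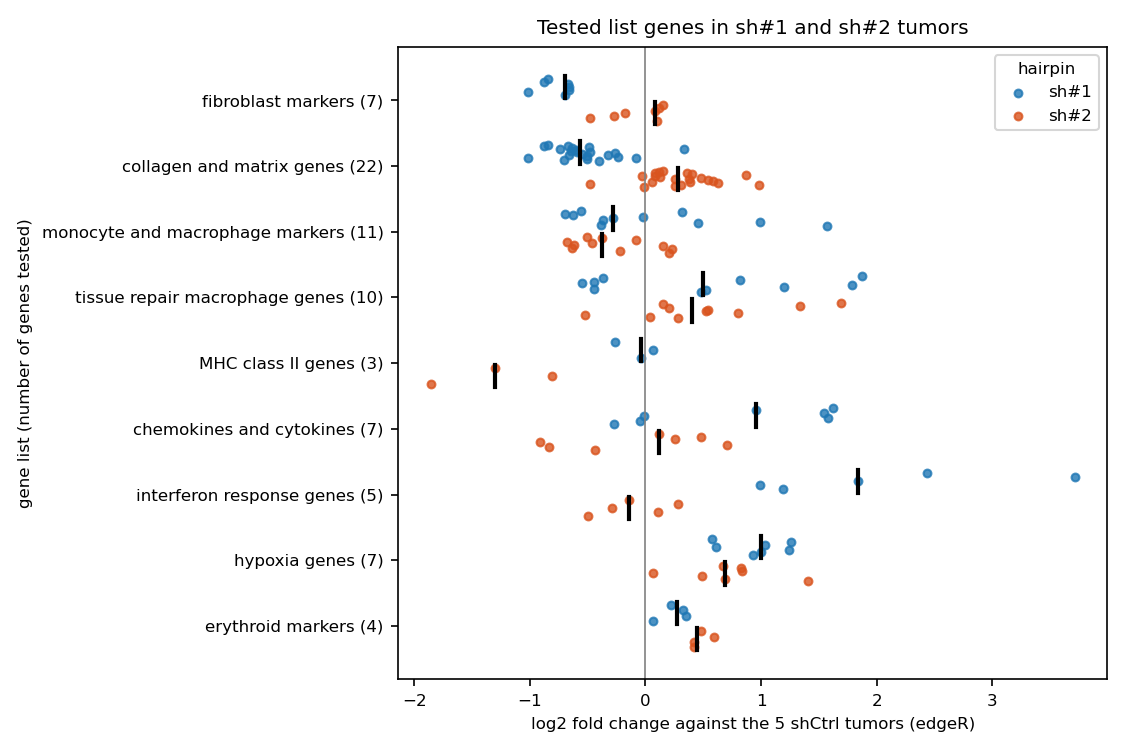
Log2 fold change (edgeR) of each tested gene of 9 lists in sh#1 (blue) and sh#2 (orange) tumors against the same 5 shCtrl tumors, with black bars at the list medians. Matrix genes lie mostly below 0 in sh#1 (median -0.57) and above 0 in sh#2 (0.28), MHC class II genes lie lower in sh#2 (-1.30), and hypoxia genes lie above 0 in both (1.00 and 0.68).

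All 7 tested hypoxia genes had values above 0 in CDH11 KD, with a median of 0.91, and above 0 in each hairpin. Without the first sh#1 tumor the median in CDH11 KD was 0.70, with 6 of 6 tested above 0. The sh#1 median went from 1.00 to 0.73 in that fit. With all tumors, 5 of the 7 genes had an unadjusted p < 0.05, against 3.38% of all genes in that direction. They were P4ha1 (a collagen prolyl hydroxylase), Slc2a1 (a glucose transporter), Ndrg1 (a stress-induced protein), Eno1 (an enzyme of glycolysis) and Vegfa. P4ha1 stood at 75.3, 88.6, 62.3, 35.7 and 109.9 CPM in shCtrl, at 238, 141, 39.9, 134 and 137 CPM in sh#1, and at 252, 262, 174, 111 and 168 CPM in sh#2. All sh#2 tumors lay above all shCtrl tumors, and 4 of 5 sh#1 tumors did. Its log2 fold change of 1.19 ± 0.36 had the lowest p of the comparison (edgeR, q = 0.808). All 7 genes had a high human namesake. Human P4HA1 stood at 57.5 ± 20.7, 108 ± 45.4 and 65.7 ± 16.3 human CPM in shCtrl, sh#1 and sh#2. Human SLC2A1 stood at 83.2 ± 33.2, 140.5 ± 54.4 and 83.4 ± 23.5. Human NDRG1 stood at 9.43 ± 4.74, 29.5 ± 29.0 and 16.8 ± 11.2, and human ENO1 at 2591 ± 254, 2726 ± 229 and 2938 ± 231. Human VEGFA was not analysed here. The mean human level was thus above shCtrl in both hairpins for P4HA1, NDRG1 and ENO1. For SLC2A1 it was above shCtrl in sh#1 and close to it in sh#2. The part of human reads in these mouse values was not tested.

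Among genes with lower values in CDH11 KD, some had mouse and human namesake values that moved together across tumors. Mouse Vgf stood at 932, 1451, 3893, 1811 and 1033 CPM in shCtrl, at 226, 1726, 1064, 672 and 711 CPM in sh#1, and at 484, 389, 249.9, 191 and 561 CPM in sh#2. All 10 CDH11 KD tumors were below the shCtrl mean, and no sh#2 tumor reached a shCtrl tumor. Vgf, with a high human namesake, had a log2 fold change of -1.55 ± 0.48 in CDH11 KD and -2.30 ± 0.51 in sh#2 (edgeR, q = 0.808 and 0.265), and DESeq2 called it in sh#2. Human VGF, with 12019 counts, stood at 896, 1324, 3083, 1422 and 919.7 human CPM in shCtrl and between 379 and 1018 in sh#2. The tumor with the highest mouse Vgf was also that with the highest human VGF.

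Pcdh7, a protocadherin, stood at 249.7 ± 36.6 CPM in shCtrl, 149 ± 91.2 CPM in sh#1 and 115 ± 66.1 CPM in sh#2, with a log2 fold change of -0.94 ± 0.31 in CDH11 KD (edgeR, q = 0.808). Its human namesake was high and stood at 179 ± 16.2, 96.7 ± 55.8 and 48.3 ± 28.1 human CPM. Rexo2 (a mitochondrial RNA exonuclease, high human namesake), Samd4b (an RNA-binding protein, high human namesake) and Gm5426, a predicted gene without a matched namesake, completed the 5 lowest p-values on this side, with log2 fold changes of -0.63, -0.78 and -0.83. On the other side were P4ha1, Arg1, Il1rn, Pdia3 (an endoplasmic reticulum chaperone) and Cul3 (a ubiquitin ligase scaffold), the last 2 with 0.70 and 0.84 and with high human namesakes.

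**Figure D5:**
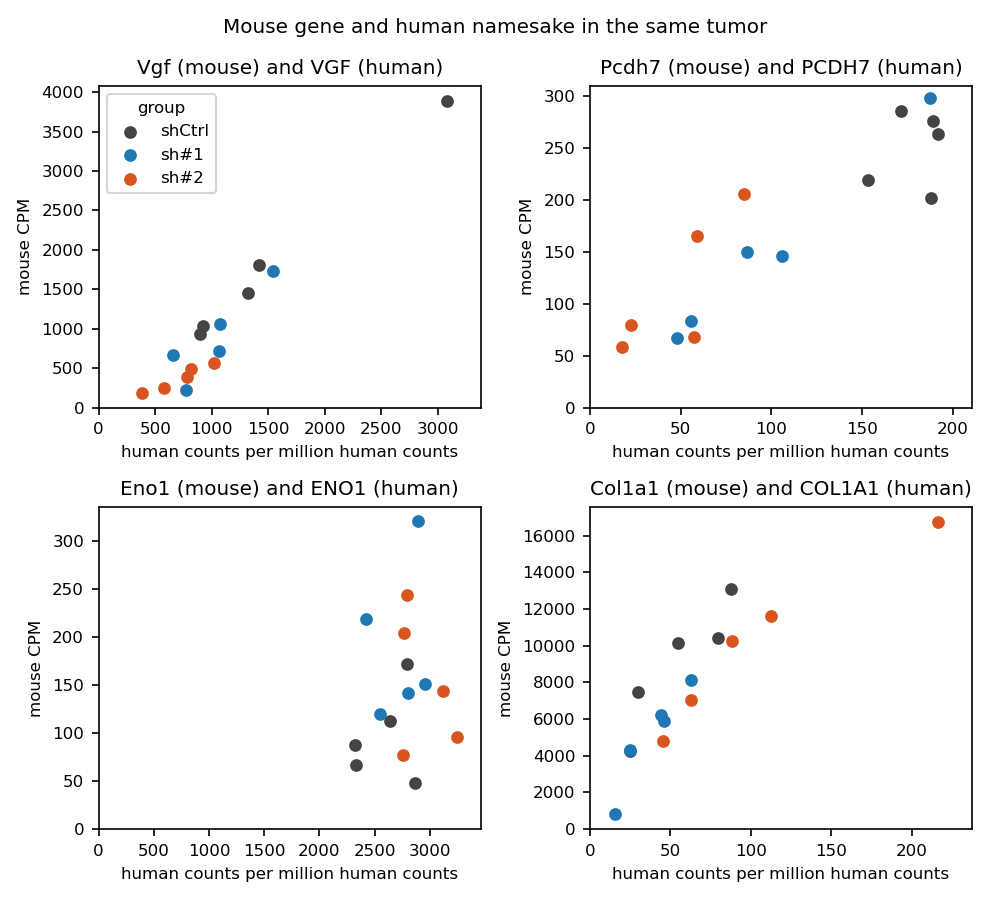
Mouse CPM of 4 genes (vertical) against the human CPM of the namesake (horizontal) in the same tumor, colored by shRNA group. Mouse Vgf, Pcdh7 and Col1a1 rank tumors much as human VGF, PCDH7 and COL1A1 (at most 216 human CPM) do, and Eno1 does not.

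Separation of all tumors was rarer than low p-values. No gene of 1509 had all 10 CDH11 KD tumors above all 5 shCtrl tumors, and 2 genes, 0.133%, had all below. They were Upf2, a factor of nonsense-mediated decay, and Hspe1, a mitochondrial chaperonin, both with high human namesakes (edgeR, q = 0.870 for both). Hspe1 stood between 529 and 593 CPM in shCtrl and between 166 and 521 CPM in CDH11 KD. Pcbp1, an RNA-binding protein, had a log2 fold change of -0.88 ± 0.22 in sh#2 (edgeR, q = 0.265) and was called there by DESeq2. Its human namesake was over 100 CPM in culture but had 7 counts in all tumors together, against 784 on the mouse gene. Aldoa, an aldolase on the hypoxia list, showed the same, with 12 human and 919 mouse counts, and so did Fth1, with 250 and 8469, and Ndrg1, with 167 and 303. Of 1366 genes with a namesake over 100 CPM in culture, 51 had fewer human than mouse counts in the tumors.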

How the data were processed

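Tumor RNA was extracted with ISOGEN and an RNeasy kit with DNase I, and sequenced on a NovaSeq6000 as 75 bp single reads. The study's methods name trim galore for trimming and HISAT2 with the human build hg38 for mapping. How mouse reads were mapped or set apart, the mouse build, the counting tool, the annotation and any use of molecular identifiers are not given in the sources used here. The authors deposited whole-number, unnormalized counts per gene for mouse and human, which were used as deposited. Because human reads could fall on mouse genes, each mouse gene was matched by symbol to the human gene in the cultured cell table.

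Genes of protein_coding biotype without mt- symbols were kept. The main test was edgeR 4.0.16 under R 4.3.3 (TMM, filterByExpr, robust quasi-likelihood test, Benjamini-Hochberg q, threshold 0.1), CDH11 KD in a 2-group fit and the hairpins in a 3-group fit, with library sizes set to the totals over all kept genes. Library sizes were first the sums over tested genes. This was changed after a first run had been seen, and the test on simulated data was run again. Standard errors come from the fold change and its F statistic. Alternatives included DESeq2 1.42.0, upper quartile scaling, other filters and each tumor left out. Genes were named by rule (the 10 genes with most CPM, the top 3 of each marker list, calls of mean count at least 20, and checks) or after their values were seen, as stated. One gene that the rule names is not reported here. The members and the 25 gene lists were chosen with earlier results of these data known. No mouse gene sequence or length was used here. Each tumor column was counted as 1 replicate. Counts differed between tumors of a group by more than sampling noise (chi-square per degree of freedom 1.35 to 9.12). Such a spread cannot show that the tumors were independent, because separate preparations of 1 tumor could differ as well. SDs and SEs include the spread between tumors, and the floor of 3 counts covers counting error only.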

Additional observations from a re-analysis of the deposited data

Results flagged for a closer look

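In groups of 5, a tumor was singled out when its gap to the nearest other tumor exceeded 0.71 of the group's range (Dixon's 95% critical value). Of 87 groups of values 17 had such a tumor, and 7 of the 17 were the first sh#1 tumor. The critical value gives about 1 in 20 by chance only for normally distributed values. Many of these sums were skewed or near 0 counts, so the 17 cannot be compared with that rate. Lists of shared tissue are not independent of one another.

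The first sh#1 tumor stood apart from the other sh#1 tumors in its mouse share of counts (26.1%, others 6.91% to 8.64%) and in the share of mouse counts on genes with high human namesakes (65.7%, others 78.6% to 79.9%). Its summed levels were 21983 CPM for adipocyte markers, 15709 CPM for skeletal muscle markers, 27686 CPM for interferon response genes, 12298 CPM for chemokines and cytokines and 8734 CPM for hypoxia genes, each above the other 4.

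The fourth shCtrl tumor stood apart in mast cell markers (1489 CPM, others 43.9 to 56.5 CPM), MHC class II genes (3002 CPM, others 465 to 1099 CPM) and epidermal keratinocyte markers (441 CPM, others 0 to 11.1 CPM). The first shCtrl tumor had 198 CPM of NK cell markers (others 46.7 to 65.9 CPM) and 9.41 CPM of B cell and plasma cell markers, where the others were at 0 and the value is 1 count. The third shCtrl tumor had 33806 CPM of erythroid markers (others 13536 to 18405 CPM).

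Among sh#2 tumors the third had 2651 CPM of adipocyte markers (others 143 to 407 CPM) and 2734 CPM of skeletal muscle markers (others 38.9 to 556 CPM). The fourth had 222 CPM of mast cell markers (others 18.7 to 58.1 CPM), and the fifth 1496 CPM of endothelial markers (others 765 to 953 CPM).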

How the results depend on the processing

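For CDH11 KD against shCtrl the counts of called genes were 0 under each alternative run but one, the fit without the low-count filter, with 3 higher and 2 lower. For sh#1 against shCtrl, 0 calls became 8 with DESeq2, 7 with the mouse to human ratio as covariate, 111 without the low-count filter, and 1 when genes with high human namesakes were left out, with 237 genes then tested. For sh#2 against shCtrl, 0 calls became 2 with DESeq2, 2 with that covariate, 3 without the filter, 2 with at least 10 counts in every tumor and 1 with all biotypes and mt- genes. Between the hairpins, 0 calls became 57 with the covariate and 98 without the filter. With tumors left out 1 at a time the calls ranged from 0 to 0 for CDH11 KD in both directions, 0 to 5 for sh#1, 0 to 3 for sh#2 and 0 to 1 between the hairpins. The 5 calls of sh#1 came when the third or the fourth sh#1 tumor was left out. The cause of these differences was not tested.

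Further alternatives were chosen after seeing the data. Without the 3 tumors of highest mouse share there was 1 call for sh#1 and 1 between the hairpins. With high-namesake genes and the first sh#1 tumor both left out there were 1 for sh#1, 2 for sh#2 and 1 between the hairpins.

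Tumor numbers did not pair the samples: 4 of 15 same-number pairs across groups had a correlation over 0.1, and 5 of 15 tumors matched their own number best. With the tumor number as a replicate block the calls were 0 for CDH11 KD, 3 for sh#1 and 1 between the hairpins.

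The log2 fold change of Pecam1 in CDH11 KD ranged from -0.27 to 0.15 with tumors left out, and its sign turned without the second, the third or the fifth shCtrl tumor (0.15, 0.03 and 0.02). Without the first sh#1 tumor, signs also turned for other genes, among them Acta1 in CDH11 KD (0.31 to -1.31), Des in sh#1 (0.32 to -2.51) and C1qc in sh#1 (-0.28 to 0.01). The difference in mouse share ranged from 0.894 (without the first sh#1 tumor) to 3.04 percentage points with tumors left out, was 3.65 with all biotypes and CT010467.1 (p = 0.211, exact permutation) and 1.14 without high-namesake genes (p = 0.525, exact permutation). Il1rn in sh#1 passed under 9 alternatives. The tissue repair list's median in CDH11 KD was 0.92 without high-namesake genes and 0.25 without the first sh#1 tumor. The angiogenesis list's was 0.69 with at least 10 counts in every tumor. At a floor of 22 to 69.2 CPM for 3 counts, 8 marker lists had no gene that passed the low-count filter.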
